A study of Mus musculus with 11 samples.

Results

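The genes described here are the receptors, and the proteins named after a receptor that they serve, within a signature of 638 genes that the authors deposited for mouse granulocyte-macrophage progenitors (GMPs). They were picked by name: the gene name had to hold the word receptor and none of the words kinase, phosphatase, transcription or zinc finger, and adhesion G protein-coupled receptors and 6 named genes (Fzd7, Csf3r, Il1r2, Fcgr4, Cd14 and Cd27) were left out. This left 39 of the 638 genes. Plaur, the urokinase receptor, fell out because the letters of kinase stand inside urokinase.

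The series used arrays to ask which genes accompany the passage of a chronic myeloid leukaemia-like disease, caused by loss of the transcription factor Irf8, into blast crisis once beta-catenin is activated. GMPs were sorted by flow cytometry from independent pools of mice, so an array stands for a pool and not for 1 animal. The 3 groups are Irf8 KO / b-cat(Ex3) (4 arrays, called double-mutant below), in which Irf8 is lost and 1 Ctnnb1 allele has lost exon 3, Irf8 KO (3 arrays), in which Irf8 is lost and that allele is written as floxed in the series text, and control (4 arrays), labelled control MxCre–Ctnnb1(Ex3)fl/+, where the labels do not say whether the dash means that the recombinase is absent. To induce the recombinase, mice of all 3 groups were injected with poly(I:C), an artificial RNA that evokes interferon: 400 µg on each of days 0, 3 and 5. Marrow was harvested 10 to 14 days later. The Mx promoter that drives the recombinase answers to interferon in many cell types, so excision is not limited to GMPs. The labels give no mouse age and no strain.

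Beta-catenin without its exon 3 escapes degradation and acts on genes together with TCF and LEF factors. Irf8 directs progenitors towards monocytes and dendritic cells and, in its absence, granulocytic cells accumulate. Surface receptors set which signals a progenitor can hear: cytokine and TNF-family receptors pass growth, death and activation signals, G protein-coupled receptors read lipids, nucleotides and peptides, lipoprotein and endocytic receptors take up particles and sort cargo, and nuclear receptors with their coregulators act on genes directly.

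The deposited signature does not name the groups it compares, and the array table settled this. For all 638 genes the logarithm of the deposited fold equalled the double-mutant minus control difference of mean log2 levels at exactly 1 of 45037 probe sets, with a largest gap of 2.04e-09, while 0 genes fitted either of the other comparisons within the tolerance of 1e-08. Positive values therefore mean higher in double-mutant GMPs than in control GMPs, and each gene is read from the 1 probe set behind its deposited fold. Because this comparison chose the genes, its values are a description here and carry no test. The same holds wherever double-mutant arrays are said below to lie apart from the controls. The smallest absolute log2 difference among the 39 genes was 0.597, in Gpr137, beside the signature's lower limit of 0.585 (1.5-fold), and Insr came next at 0.62. Probe sets just outside the limit carry no gene name in the files used here. The differences of Irf8 KO from control and of double-mutant from Irf8 KO are tested, but they share control or double-mutant arrays with the comparison that chose the genes and add up to it. The files do not record whether the authors applied a further filter to make the signature specific.

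The 11 arrays had medians between 3.92 and 4.09 on the log2 scale. Each array's Pearson correlation with the mean of the others in its group, across all probe sets, lay between 0.983 and 0.996, lowest in double-mutant replicate 2 (0.983) and control replicate 4 (0.987, as was double-mutant replicate 3). Control replicate 4 was the highest of the 4 controls for 16 of the 24 genes that were higher in double-mutant GMPs and for 72.8% of such genes in the signature. Irf8 itself, a signature gene, read 8.35, 8.63, 7.51 and 7.77 in double-mutant arrays, 8.60, 7.90 and 8.89 in Irf8 KO arrays and 9.38, 9.46, 9.78 and 9.23 in control arrays. Where its probes lie relative to the deleted part of the gene is not known here, so this value does not check the labels. Genes outside the signature carry no name here, so the defining genes of GMPs could not be read, and the cell type rests on the labels' sort.

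Of the 39 genes, 24 were higher and 15 lower in double-mutant than in control GMPs, and 20 differed by at least 2-fold (13 higher, 7 lower). The differences ran from 1.76 in Gpr84 down to -1.86 in Ptger3. By kind of receptor, all 6 lipoprotein, scavenger and endocytic receptors were higher, 5 of 6 cytokine and TNF-family receptors were higher, and 8 of 11 receptors for lipids, nucleotides, peptides and steroids were lower. These kinds were assigned by hand from known roles, though Gpr137, placed in the last of them, has no known ligand. Gpr84, a receptor for medium-chain fatty acids with the largest rise of the 39 genes, was placed with the innate receptors instead. The split of the kinds was not tested, and 61.5% of the 39 genes were higher. Among the 638 signature genes, 394 were higher (61.8%) and 244 lower, and 6.13% of all probe sets passed limma's test in this comparison (1535 higher and 1226 lower, or 1850 and 882 with each array centred on its median). In sorted GMPs, a lower level in every cell and fewer cells that carry the RNA cannot be told apart.

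**Figure D1:**
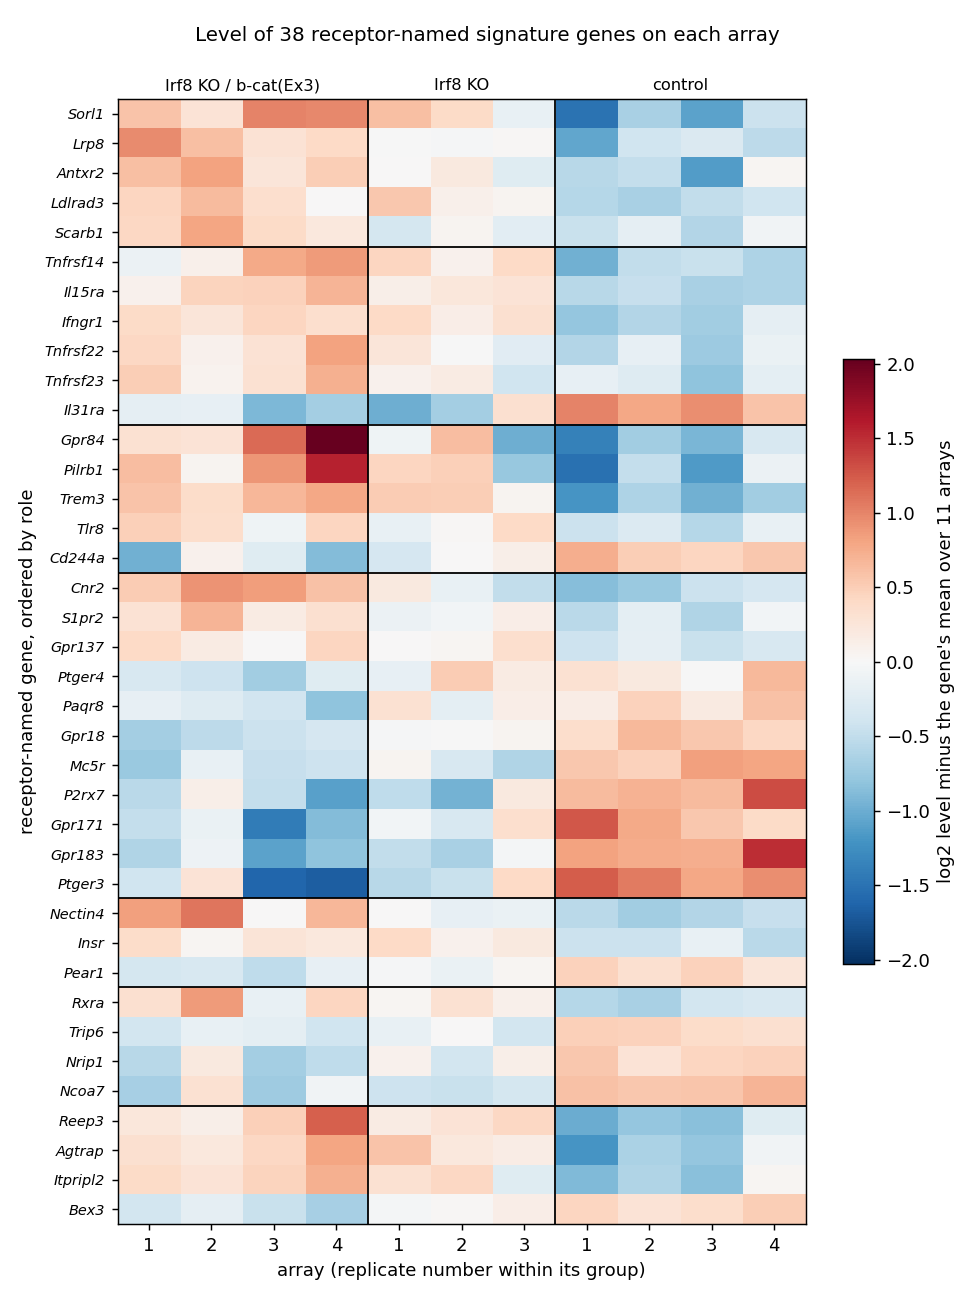
Heat map of the log2 level of 38 receptor-named genes (rows, in blocks by role: lipoprotein and endocytic, cytokine and TNF-family, innate, lipid to steroid, insulin and adhesion, nuclear, accessory) on the 11 arrays (columns, double-mutant, then Irf8 KO, then control), each minus the gene's mean over the 11 arrays. Most genes higher in double-mutant arrays are red on the left and blue on the right and most of the lower ones the reverse, while the Irf8 KO arrays lie in between or, gene by gene, nearer to either side.

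Part of these receptors already differed between Irf8 KO and control GMPs. Against control GMPs, 6 of the 39 genes rose in Irf8 KO GMPs (Trem3, Sorl1, Ifngr1, Il15ra, Ldlrad3 and Insr) and 5 fell (Gpr183, Il31ra, Ncoa7, Mc5r and Trip6), in limma with Benjamini-Hochberg adjustment over all 45037 probe sets at an adjusted p under 0.05. These 11 genes are 28.2% of the 39, where 18.5% of all signature genes (118 of 638, 9.25% in each direction) and 1.75% of all probe sets (789; 0.81% higher and 0.941% lower) passed. The 39 were chosen on control arrays that this test uses again, so the share of all probe sets is not a measure of what their choice alone would give. At an unadjusted p under 0.05 there were 30 of 39 genes (76.9%), against 77.4% of the signature and 12.9% of all probe sets. The call was most secure for Trem3 and Il15ra, which passed under all 19 alternative settings, and for Ifngr1, which passed under 18. Which other genes passed depended on single arrays: the count was 3, 4 and 7 with Irf8 KO replicate 1, 2 or 3 left out, 5 with control replicate 1, 2 or 3 left out, 12 without control replicate 4, 14 without double-mutant replicate 2 and 16 without these last 2 arrays.

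Between double-mutant and Irf8 KO GMPs no receptor difference passed the same test. For double-mutant minus Irf8 KO, 0 of the 39 genes were called (limma, Benjamini-Hochberg) and 15 had an unadjusted p under 0.05 (38.5%). Of all 45037 probe sets, 2 passed (0.00444%), 1 of them in the signature (0.157%), while 37.8% of the signature and 7.07% of all probe sets had an unadjusted p under 0.05. The adjusted p was 0.395 for Cnr2 and 0.418 for Gpr18. A miss at this size does not show that the groups are alike, and the 95% intervals below give what the arrays allow.

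Set side by side, the 24 higher genes had a median difference of 0.63 for Irf8 KO minus control and 0.34 for double-mutant minus Irf8 KO, and the 15 lower genes -0.63 and -0.34. The signature's medians were 0.57 and 0.34 for its higher genes and -0.63 and -0.30 for its lower genes, close to those of the receptors. A comparison of Irf8 KO with the midpoint of the double-mutant and control means was added after the data were seen. With 4 arrays in both outer groups, it is uncorrelated with the comparison that chose the genes only where these groups spread equally. This does not hold for every gene: Ptger3 had an SD of 0.95 in double-mutant and 0.19 in control arrays. The midpoint comparison asks whether the Irf8 KO arrays lie nearer to one end. In it 0 of the 39 genes passed (0.0999% of all probe sets, 0 of 638 signature genes). At an unadjusted p under 0.05 there were 12 (30.8%, against 15% of the signature and 7.09% of all probe sets). In those of the 12 that are reported here, such as Trem3 and Gpr183, the Irf8 KO mean lay nearer to the double-mutant mean.

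**Figure D2:**
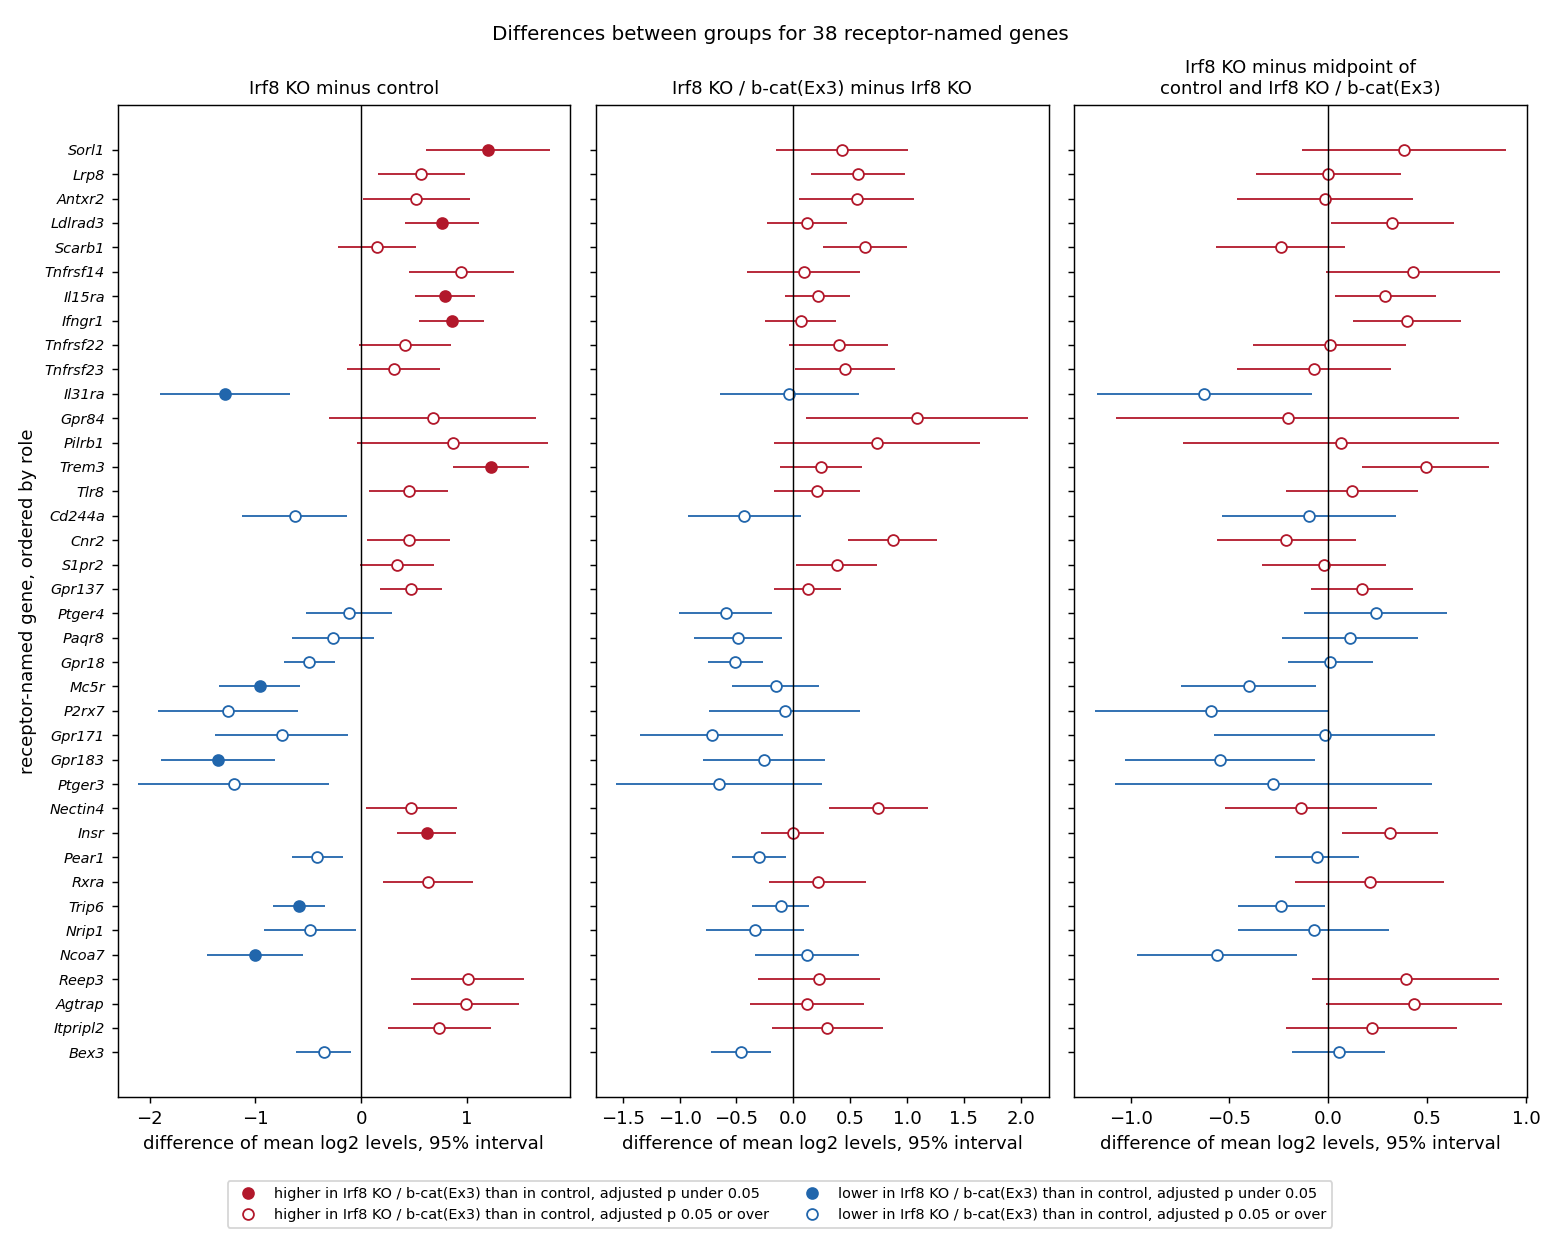
Differences of mean log2 levels (x axes, points) with 95% intervals (lines) for 38 genes in the same order, in 3 panels: Irf8 KO minus control, double-mutant minus Irf8 KO, and Irf8 KO minus the midpoint of control and double-mutant. Red marks genes higher and blue genes lower in double-mutant than in control arrays, and filled points have a limma adjusted p under 0.05; the 11 filled points are all in the Irf8 KO minus control panel.

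Promoters are shown for the genes that hold a letter pattern related to Irf8, since loss of this factor was what the first comparison tested. The genes were taken by the pattern, whether or not they were called in Irf8 KO minus control. The pattern GAAANNGAAA, read on both strands, is a pair of the GAAA cores that interferon regulatory factors contact. RefSeq promoters of build GRCm38.p6, from 250 bases before to 50 after each start, matched 31 of the 39 genes by gene ID. The pattern stood in 6 of the 31 (19.4%), against 3.99% of 27025 genes with a promoter in the table. A gene was counted if any of its promoters held the pattern, and the 31 genes had 43 promoters. For this and the patterns below, the share in the whole signature was not computed. The shares therefore cannot be read as particular to the receptors. The 5 stretches of 60 bases below are written 5′ to 3′ on the gene's own strand, with the pattern in capitals; in Nectin4 and Tnfrsf14 it lies on the opposite strand and is therefore spelled as its reverse complement. The sixth gene, Ncoa7, holds it at position 8 after the start and is not printed.
Gpr18, chr14:121915895-121915954, minus strand: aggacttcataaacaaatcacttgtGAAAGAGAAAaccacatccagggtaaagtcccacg
Ldlrad3, chr2:102186579-102186638, minus strand: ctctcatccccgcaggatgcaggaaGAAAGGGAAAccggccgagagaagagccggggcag
Nectin4, chr1:171370045-171370104, plus strand: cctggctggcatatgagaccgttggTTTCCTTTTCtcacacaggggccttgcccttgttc
Pilrb1, chr5:137858240-137858299, minus strand: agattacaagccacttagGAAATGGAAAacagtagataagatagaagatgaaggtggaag
Tnfrsf14, chr4:154928107-154928166, minus strand: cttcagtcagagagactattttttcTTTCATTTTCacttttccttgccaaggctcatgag

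The patterns begin 41 bases before the start in Gpr18, 64 in Tnfrsf14, 103 in Nectin4, 153 in Ldlrad3 and 232 in Pilrb1. Of the 6 genes, 4 were higher in double-mutant than in control GMPs (Ldlrad3, Nectin4, Pilrb1 and Tnfrsf14) and 2 lower (Gpr18 and Ncoa7), so the pattern was found on both sides. In Irf8 KO minus control only Ldlrad3 and Ncoa7 among them were called. The limma adjusted p was 0.0512 for Gpr18, 0.0645 for Tnfrsf14, 0.329 for Nectin4 and 0.414 for Pilrb1. The TCF and LEF pattern CTTTGAA stood in 5 of the 31 genes (Cnr2, Gpr18, Il15ra, Ncoa7 and P2rx7, 16.1%), against 5.93% of all genes, and its form CTTTGAT in 0, against 4.29%. The composite of a PU.1 and an interferon regulatory factor core, GGAANNGAAA, stood in 0, against 3.16%, and the sterol element TCACCCCAC in 0, against 0.614%. The STAT pattern TTCNNNGAA stood in 4 (Il31ra, Paqr8, Sorl1 and Tlr8, 12.9%), against 9.55%. All 6 patterns were searched on both strands of the same windows, and GAAANNGAAA and GGAANNGAAA cannot match at the same place because their second letter differs. A match describes letters in a window and shows no binding.

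Among the lipoprotein, scavenger and endocytic receptors, Sorl1 and Ldlrad3 rose in Irf8 KO GMPs. Sorl1, a sorting receptor of the VPS10 family that carries cargo between Golgi and endosomes, read 8.06, 7.76, 8.48 and 8.45 in double-mutant, 8.08, 7.87 and 7.32 in Irf8 KO and 5.97, 6.81, 6.39 and 7.04 in control arrays. Every mutant array lay above every control array, and Irf8 KO exceeded control by 1.20 (2.30-fold, 95% interval 0.62 to 1.78, adjusted p = 0.0445). It passed under 10 of 19 alternative settings. Ldlrad3, a small membrane protein, read 8.64, 8.86, 8.56 and 8.22 in double-mutant, 8.77, 8.31 and 8.27 in Irf8 KO and 7.63, 7.56, 7.72 and 7.81 in control arrays. Its groups did not overlap with control either, and the Irf8 KO difference was 0.77 (1.70-fold, 0.42 to 1.12, adjusted p = 0.0329, passed under 11 of 19).

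The Irf8 KO arrays of Scarb1 lay with the controls. Scarb1, the receptor for high density lipoprotein, read 6.79, 7.18, 6.77 and 6.58 in double-mutant, 6.01, 6.44 and 6.15 in Irf8 KO and 5.92, 6.19, 5.79 and 6.31 in control arrays. Its differences were 0.63 (0.26 to 0.999, adjusted p = 0.475) for double-mutant minus Irf8 KO and 0.15 (-0.22 to 0.52, adjusted p = 0.8) for Irf8 KO minus control. Its probe set has the suffix that the array maker gives to probes that can also bind other transcripts. Scarb1 passed the test in neither step.

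Lrp8 and Antxr2 lay in between. Lrp8, a receptor for apolipoprotein E and reelin, read 5.98, 5.64, 5.32 and 5.43 in double-mutant, 5.01, 5.01 and 5.06 in Irf8 KO and 3.97, 4.62, 4.74 and 4.49 in control arrays. The 3 groups did not overlap, and both steps had a difference of 0.57 (adjusted p = 0.587 for double-mutant minus Irf8 KO and 0.195 for Irf8 KO minus control). Antxr2, which binds collagen and admits anthrax toxin, read 6.01, 6.22, 5.64 and 5.90 in double-mutant, 5.40, 5.59 and 5.16 in Irf8 KO and 4.83, 4.91, 4.27 and 5.44 in control arrays. Control replicate 4 reached into the Irf8 KO range, and neither step passed (0.56, adjusted p = 0.667, and 0.52, adjusted p = 0.363).

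In the cytokine and TNF-family class, the receptor chains for interferon gamma and interleukin-15 rose and Il31ra fell in Irf8 KO GMPs. Ifngr1, the ligand-binding chain of the interferon gamma receptor, read 9.89, 9.74, 9.94 and 9.84 in double-mutant, 9.90, 9.64 and 9.83 in Irf8 KO and 8.71, 8.90, 8.79 and 9.32 in control arrays. Both mutant groups covered the same range above all controls, and Irf8 KO exceeded control by 0.86 (1.81-fold, 0.55 to 1.17, adjusted p = 0.00891), with 0.06 for double-mutant minus Irf8 KO (-0.24 to 0.37). Il15ra, the chain that holds interleukin-15 and presents it to neighbouring cells, read 6.31, 6.68, 6.69 and 6.92 in double-mutant, 6.35, 6.45 and 6.50 in Irf8 KO and 5.66, 5.75, 5.56 and 5.60 in control arrays. Mutant and control arrays were again apart, by 0.79 for Irf8 KO minus control (1.73-fold, 0.51 to 1.08, adjusted p = 0.00936). Il31ra, a chain of the interleukin-31 receptor related to gp130, read 6.11, 6.12, 5.38 and 5.61 in double-mutant, 5.30, 5.60 and 6.62 in Irf8 KO and 7.31, 7.08, 7.24 and 6.88 in control arrays. Irf8 KO replicate 3 stood well above the other 2 Irf8 KO arrays but below all controls, and the difference was -1.29 (2.44-fold lower, -1.90 to -0.67, adjusted p = 0.0405, passed under 10 of 19 settings).

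The 3 TNF receptor genes of this class were all higher in double-mutant GMPs and did not pass in either step. Tnfrsf14, the herpesvirus entry mediator that binds LIGHT and BTLA, read 6.14, 6.35, 7.01 and 7.10 in double-mutant, 6.68, 6.34 and 6.65 in Irf8 KO and 5.27, 5.75, 5.80 and 5.62 in control arrays. All mutant arrays exceeded all controls, and Irf8 KO minus control was 0.95 (0.45 to 1.44, adjusted p = 0.0645). Tnfrsf22 and Tnfrsf23, mouse decoy receptors for the death ligand TRAIL, are direct neighbours on chromosome 7 and related in sequence, and whether their probes tell them apart was not checked here. Their double-mutant minus control differences were 0.82 and 0.76, and their Irf8 KO minus control differences 0.41 (adjusted p = 0.417) and 0.31 (adjusted p = 0.586).

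Of the innate receptors, Trem3 rose in Irf8 KO GMPs and had the smallest adjusted p of the 39 genes in that comparison. Trem3, which activates mouse myeloid cells through the adaptor DAP12, read 9.86, 9.66, 9.96 and 10.07 in double-mutant, 9.80, 9.78 and 9.34 in Irf8 KO and 8.09, 8.66, 8.31 and 8.57 in control arrays. The lowest mutant array, at 9.34, was well above the highest control, at 8.66, and Irf8 KO exceeded control by 1.23 (2.35-fold, 0.87 to 1.59, adjusted p = 0.00253). The adjusted p stayed between 0.000667 and 0.02 over the alternatives.

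Gpr84 and Pilrb1 had large differences that spread widely among arrays. Gpr84, a receptor for medium-chain fatty acids on myeloid cells, read 4.79, 4.75, 5.63 and 6.51 in double-mutant, 4.40, 5.11 and 3.49 in Irf8 KO and 3.12, 3.78, 3.56 and 4.16 in control arrays. The Irf8 KO arrays overlapped with both other groups, and the 95% intervals were correspondingly wide: 0.11 to 2.06 around 1.09 for double-mutant minus Irf8 KO (adjusted p = 0.664) and -0.30 to 1.65 around 0.68 for Irf8 KO minus control (adjusted p = 0.593). Pilrb1, an activating receptor that also signals through DAP12, read 7.20, 6.63, 7.48 and 8.14 in double-mutant, 7.02, 7.05 and 5.80 in Irf8 KO and 5.05, 6.09, 5.43 and 6.45 in control arrays. In both genes Irf8 KO replicate 3 was the lowest of its group and control replicate 4 the highest of the controls. Pilrb1 has a close relative in the mouse genome, and cross-binding was not checked here.

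Cd244a was the lower one of this class. This receptor of the SLAM family, which binds Cd48, read 4.51, 5.57, 5.23 and 4.60 in double-mutant, 5.14, 5.49 and 5.59 in Irf8 KO and 6.21, 5.98, 5.92 and 6.03 in control arrays. All mutant arrays were below all controls, with -0.63 for Irf8 KO minus control (-1.12 to -0.13, adjusted p = 0.247). Tlr8, an endosomal sensor of single-stranded RNA, was read near the dim end of the array, at 2.32 to 2.89 in double-mutant, 2.26 to 2.82 in Irf8 KO and 1.83 to 2.27 in control arrays. Its groups overlapped between Irf8 KO and control (0.45, adjusted p = 0.277).

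The receptors for lipids, nucleotides, peptides and steroids held most of the lower genes, and 2 of them, Gpr183 and Mc5r, fell in Irf8 KO GMPs. Gpr183, which guides immune cells along oxysterol gradients, read 3.59, 4.10, 3.12 and 3.39 in double-mutant, 3.70, 3.55 and 4.17 in Irf8 KO and 5.02, 4.96, 4.95 and 5.71 in control arrays. The mutant groups overlapped with each other and lay below all controls, at -1.35 for Irf8 KO minus control (2.56-fold lower, -1.89 to -0.81, adjusted p = 0.0164, passed under 16 of 19 settings). Mc5r, a receptor for melanocortin peptides, read 2.49, 3.08, 2.78 and 2.82 in double-mutant, 3.30, 2.92 and 2.62 in Irf8 KO and 3.79, 3.71, 4.07 and 4.05 in control arrays. The arrays were apart, at -0.96 (1.95-fold lower, -1.34 to -0.58, adjusted p = 0.0166), but its mean over the 11 arrays is below 4.02, the median of all probe sets. The same holds for 6 others of the 39 genes, namely Tlr8, Ptger4, Paqr8, Ptger3, Nectin4 and Pear1.

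Ptger3 and Ptger4, a pair of prostaglandin E2 receptors with opposite coupling to cyclic AMP, were both lower. Ptger3 read 3.43, 4.10, 2.22 and 2.16 in double-mutant, 3.26, 3.39 and 4.24 in Irf8 KO and 5.07, 4.88, 4.62 and 4.78 in control arrays. Double-mutant replicates 3 and 4 formed a lower pair, all mutant arrays were below all controls, and neither step passed (-0.65, -1.55 to 0.25, adjusted p = 0.79, and -1.21, -2.11 to -0.30, adjusted p = 0.215). For Ptger4 the double-mutant arrays, at 3.29 to 3.75, were below the Irf8 KO arrays, at 3.82 to 4.51, and these overlapped with the controls, at 3.99 to 4.65. Its step from Irf8 KO was -0.59 (-1.003 to -0.18, adjusted p = 0.551), beside -0.12 from control to Irf8 KO (adjusted p = 0.868).

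Gpr18, Gpr171 and P2rx7 were lower without passing. Gpr18, a lymphoid and myeloid receptor for lipid ligands that is the direct neighbour of Gpr183 on chromosome 14, read 4.33, 4.49, 4.59 and 4.69 in double-mutant, 5.01, 5.02 and 5.09 in Irf8 KO and 5.39, 5.68, 5.58 and 5.45 in control arrays. The 3 groups were apart with the Irf8 KO arrays in the middle, at -0.51 for double-mutant minus Irf8 KO (-0.75 to -0.27, adjusted p = 0.418) and -0.49 for Irf8 KO minus control (-0.73 to -0.25, adjusted p = 0.0512). Gpr171, a receptor for a neuropeptide, read 6.10, 6.45, 5.16 and 5.70 in double-mutant, 6.53, 6.25 and 6.92 in Irf8 KO and 7.84, 7.36, 7.12 and 6.96 in control arrays. Its mutant groups overlapped and its controls were above both (-0.75 for Irf8 KO minus control, adjusted p = 0.279). P2rx7, an ion channel that extracellular ATP opens, read 5.10, 5.78, 5.18 and 4.55 in double-mutant, 5.14, 4.69 and 5.85 in Irf8 KO and 6.29, 6.36, 6.30 and 6.99 in control arrays. Here too the mutants lay below all controls, with -1.26 for Irf8 KO minus control (2.39-fold lower, -1.92 to -0.59, adjusted p = 0.0667). The remaining lower gene was Paqr8, a membrane progesterone receptor, at -0.75 for double-mutant minus control.

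Cnr2, S1pr2 and Gpr137 were the 3 higher genes of the class, in which Gpr84 was not placed. Cnr2, the cannabinoid receptor of immune cells, read 6.02, 6.41, 6.35 and 6.10 in double-mutant, 5.70, 5.34 and 5.00 in Irf8 KO and 4.64, 4.74, 5.06 and 5.15 in control arrays. The double-mutant arrays were above all others, and Irf8 KO replicate 3 lay below control replicates 3 and 4. Its differences were 0.87 for double-mutant minus Irf8 KO (1.83-fold, 0.48 to 1.27, adjusted p = 0.395) and 0.45 for Irf8 KO minus control (0.05 to 0.84, adjusted p = 0.307). S1pr2, a receptor for sphingosine 1-phosphate, was higher by 0.72 and Gpr137, whose ligand is not known, by 0.60 in double-mutant than in control GMPs.

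**Figure D3:**
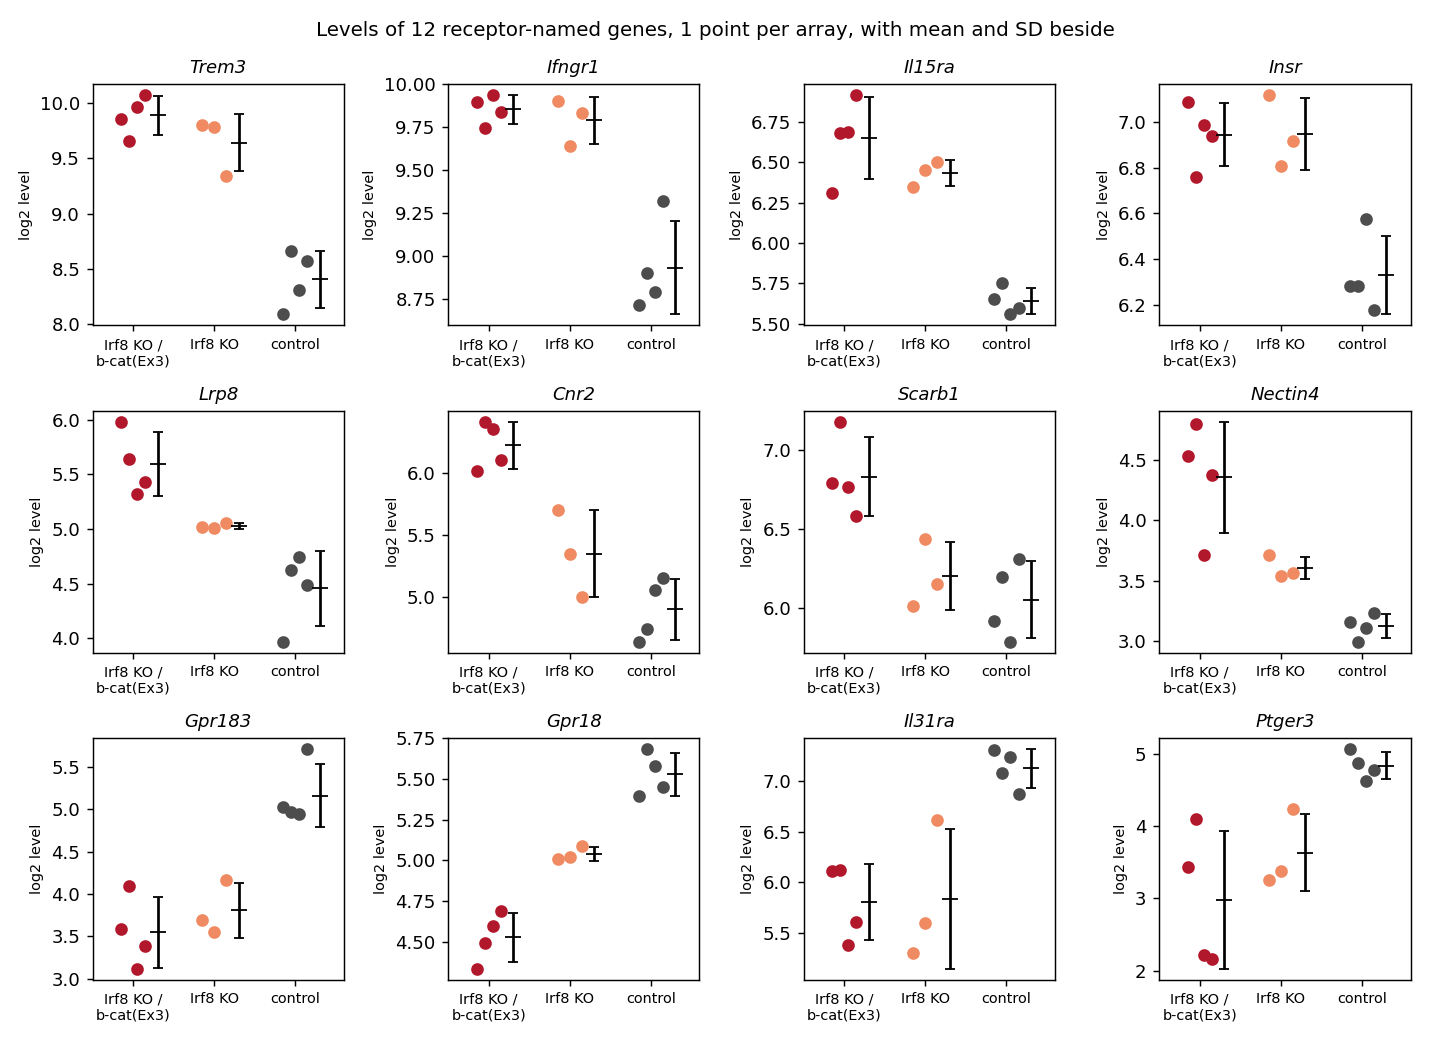
Log2 level (y axes, each with its own range) of 12 of the 39 genes on every array (points) in double-mutant, Irf8 KO and control GMPs, with mean and SD beside each group. In the upper row (Trem3, Ifngr1, Il15ra, Insr) the Irf8 KO arrays lie near the double-mutant ones, in Scarb1 they lie near the controls, and in Gpr18 the 3 groups are apart with Irf8 KO in the middle.

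Insr, the insulin receptor, rose in Irf8 KO GMPs. It read 7.09, 6.76, 6.99 and 6.94 in double-mutant, 7.12, 6.81 and 6.92 in Irf8 KO and 6.28, 6.28, 6.57 and 6.18 in control arrays. No mutant array overlapped with a control, and Irf8 KO minus control was 0.62 (1.54-fold, 0.34 to 0.90, adjusted p = 0.0284, passed under 12 of 19 settings), while the interval for double-mutant minus Irf8 KO was -0.28 to 0.27. Nectin4, an adhesion molecule that is also an entry receptor for measles virus in humans, read 4.53, 4.79, 3.71 and 4.38 in double-mutant, 3.71, 3.54 and 3.56 in Irf8 KO and 3.16, 3.00, 3.11 and 3.24 in control arrays. Double-mutant replicate 3 came down close to the highest Irf8 KO array, and the 2 steps were 0.75 (0.31 to 1.18, adjusted p = 0.467) and 0.48 (0.04 to 0.91, adjusted p = 0.329). Pear1, a platelet receptor, was lower by 0.71 in double-mutant than in control GMPs, with the 3 groups apart and neither step called.

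Of the nuclear receptor and its coregulators, Trip6 and Ncoa7 fell in Irf8 KO GMPs. Trip6, a LIM domain adaptor first found through the thyroid hormone receptor, read 5.82, 6.04, 5.99 and 5.80 in double-mutant, 6.04, 6.20 and 5.82 in Irf8 KO and 6.69, 6.66, 6.56 and 6.53 in control arrays. Controls were above all mutants, and Irf8 KO minus control was -0.59 (-0.84 to -0.34, adjusted p = 0.0222). Ncoa7, a nuclear receptor coactivator of the oxidation resistance family, read 4.95, 5.94, 4.90 and 5.56 in double-mutant, 5.21, 5.18 and 5.26 in Irf8 KO and 6.23, 6.17, 6.19 and 6.31 in control arrays. Irf8 KO and control arrays were each tightly grouped, while the double-mutant arrays were spread on both sides of Irf8 KO (-1.005 for Irf8 KO minus control, 2.01-fold lower, -1.46 to -0.55, adjusted p = 0.0325). Nrip1, a corepressor, was lower by 0.82 in double-mutant than in control GMPs, and Rxra, the shared partner of many nuclear receptors, was higher by 0.85. For Irf8 KO minus control Rxra was at 0.64 (0.21 to 1.06, adjusted p = 0.156) and Nrip1 at -0.48 (-0.92 to -0.05, adjusted p = 0.316).

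The 4 accessory proteins are no receptors themselves, and none passed in either step. Reep3, a protein of the endoplasmic reticulum, read 6.35, 6.24, 6.61 and 7.35 in double-mutant, 6.29, 6.40 and 6.55 in Irf8 KO and 5.11, 5.35, 5.27 and 5.88 in control arrays. Agtrap, which promotes uptake of the angiotensin receptor, read 7.13, 7.02, 7.22 and 7.61 in double-mutant, 7.38, 7.02 and 6.96 in Irf8 KO and 5.61, 6.17, 6.02 and 6.73 in control arrays. Both had mutants above all controls, at 1.01 (0.47 to 1.54, adjusted p = 0.0678) and 0.99 (0.49 to 1.49, adjusted p = 0.0556) for Irf8 KO minus control. Itpripl2 read 7.95, 7.83, 8.01 and 8.27 in double-mutant, 7.87, 7.97 and 7.32 in Irf8 KO and 6.67, 6.95, 6.71 and 7.59 in control arrays, with control replicate 4 reaching above the lowest Irf8 KO array. Bex3, which binds the low-affinity neurotrophin receptor, was lower by 0.81 in double-mutant than in control GMPs, with the 3 groups apart. Its 2 steps were -0.46 (-0.72 to -0.19, adjusted p = 0.467) and -0.35 (-0.62 to -0.09, adjusted p = 0.211).

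Across the 39 genes the Irf8 KO and control arrays did not overlap in 26 (66.7%, against 62.9% of the signature and 13.9% of all probe sets), and the double-mutant and Irf8 KO arrays did not overlap in 11 (28.2%, against 27.7% and 6.74%), shares close to those of the whole signature. In 5 genes, Lrp8, Gpr18, Nectin4, Pear1 and Bex3, both steps were apart (12.8%, against 13.3% of the signature and 1.79% of all probe sets). That double-mutant arrays lay apart from controls follows largely from the choice of the genes and is no support for them.

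Wider receptor lists of 356 genes were counted within the signature. The signature held 29 of these genes, 20 of which are among the 39 genes. Of 41 lipid, nucleotide and amine receptors it held 6, of which 4 were lower. Of 22 endocytic and sorting receptors it held 5, all higher, among them Sorl1, Lrp8, Plaur and Sort1, another VPS10 family sorting receptor. Of 27 TNF receptors it held 4, with 3 higher and 1, Cd27, lower. Of the 38 type I and II cytokine receptors listed it held 3, all higher (Il15ra, Ifngr1 and Csf3r). That list leaves out Il31ra, a cytokine receptor chain that is in the signature and was lower. It held 0 of 33 chemokine and chemoattractant receptors, 0 of 25 guidance and Notch receptors and 0 of 13 TGF-beta family receptors. For scale, the signature holds 638 genes and the arrays 45037 probe sets, so a short list can hold 0 by its size alone. The held counts were not tested. Only a gene whose deposited fold passed the authors' limits could be counted, so a gene not held may have been dim, unchanged or filtered. In Irf8 KO minus control, 6 of these 29 genes rose and 1, Gpr183, fell, together 24.1%, beside 18.5% of the signature and 1.75% of all probe sets. Of the 6, Siglecg, an inhibitory receptor, is not among the 39 genes, and its difference was 1.10 (limma, adjusted p = 0.0465).

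Marker genes of other cell types could be read only inside the signature, so those held differed between double-mutant and control GMPs by its choice. Their part in the receptor differences was not tested. The signature held 12 of 117 marker genes. It held 1 of 18 neutrophil markers, Cd177, with means of 8.31 ± 1.05 in double-mutant (SD, n = 4), 6.87 ± 0.62 in Irf8 KO (n = 3) and 4.62 ± 1.48 in control GMPs (n = 4). Cd177 passed in neither step (limma, adjusted p = 0.18 for Irf8 KO minus control and 0.735 for double-mutant minus Irf8 KO). Both erythroid and megakaryocyte markers that the signature held, of 18, were lower in Irf8 KO than in control GMPs: Gata1 by -1.27 (adjusted p = 0.000432) and Car1 by -2.95 (adjusted p = 0.000489). Of 15 monocyte and macrophage markers it held 2, which went opposite ways. The monocyte regulator Klf4 fell by 3.01 in Irf8 KO GMPs (limma, adjusted p = 0.0036). Adgre1 was higher by 0.80 in Irf8 KO than in control GMPs without passing (adjusted p = 0.283). In double-mutant minus control Adgre1 was higher by 1.30. The 4 stem cell and early progenitor markers it held, of 17, were lower in double-mutant than in control GMPs (Hoxa9, Tal1, Cd27 and Sox4) and did not pass in Irf8 KO minus control. Of 20 lymphoid markers it held 0, of 14 dendritic cell markers 1 (Tcf4), and of 18 eosinophil, basophil and mast cell markers 2 (Hdc and Mcpt8).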

How the data were processed

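Per the labels' protocols, total RNA of sorted GMPs was extracted with column kits, amplified to cDNA from very small inputs, which can add spread between arrays, and hybridised to Affymetrix mouse PM arrays. The authors deposited 1 table of log2 levels for 45037 probe sets on 11 arrays; the labels do not state its background correction or normalization. They also deposited the signature, which lists per gene a p-value from a test that is not named, a log2 fold change and a fold with its sign. All table columns were used (0 left out). The labels call the arrays biological replicates.

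Each signature gene was tied to the probe set whose double-mutant minus control difference equals its deposited fold (tolerance 1e-08, next nearest probe set at least 8.70e-07 away). Of 638 gene IDs, 621 matched RefSeq, which updated Pvrl4, Ngfrap1 and Cd244 to Nectin4, Bex3 and Cd244a. No probe annotation was used here, so the receptor and marker lists could be read only inside the signature, the planned choice among a gene's probe sets did not arise, and the mean over a gene's probe sets was not computed.

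Group differences came from 1 fit of 3 group means with limma 3.58.1 (lmFit, eBayes) in R 4.3.3, with Benjamini-Hochberg adjustment over all probe sets and calls at an adjusted p under 0.05. Intervals cover 95%, and the number of arrays limits the precision. Levels of different probe sets were not compared. The fit was tested on simulated data. The genes and lists were chosen with earlier results of these data known. Values per array are given for genes of at least 2-fold in the signature and for those called in Irf8 KO minus control; Scarb1 and Gpr18 were added after their values were seen. Of the 39 genes, 1 enters the counts but is not reported here. Replicate numbers are shared by the groups, but same-numbered arrays did not deviate together (10 pairs, correlations of deviations from -0.23 to 0.17, 1 over 0.1), so the numbers were not taken as pairs. Promoters were searched with python 3.11.15.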

Additional observations from a re-analysis of the deposited data

Results flagged for a closer look

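In 3 of 78 groups of 4 arrays (39 genes, double-mutant and control), the gap of an end value to its neighbour, divided by the group's range, exceeded the critical value of 0.829; chance flags about 1 group in 20. Control replicate 4 was high for Gpr183, at 5.71 with the next control at 5.02 (ratio 0.898), and for P2rx7, at 6.99 with the next at 6.36 (0.903). Control replicate 3 was low for Tnfrsf23, at 3.58 with the next at 4.13 (0.856). In all 3 genes the flagged array lay farther from the double-mutant arrays than the other controls did. The Irf8 KO group, with 3 arrays, was not examined in this way.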

How the results depend on the processing

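All 38 differences reported here between double-mutant and control GMPs kept their direction under every alternative that could give a value (4 dim genes dropped out without the dimmest 40% of probe sets), and in double-mutant minus Irf8 KO 0 genes were called under any of them. Of the 11 genes called in Irf8 KO minus control, Trem3 and Il15ra were called in all 11 runs that left out 1 array, Ifngr1 in 10 (not without Irf8 KO replicate 1), Gpr183 in 9, Mc5r in 8, Trip6 in 6, Insr in 5, and Sorl1, Ldlrad3, Il31ra and Ncoa7 in 4 each. Their count ran from 3 to 14 over these runs; it was 19 with array weights, 3 at an adjusted p under 0.01 and 8 (7 higher, 1 lower) with the replicate number as a block. The replicate block gave 2, 658 and 2443 called probe sets in double-mutant minus Irf8 KO, Irf8 KO minus control and double-mutant minus control, against 2, 789 and 2761 without it, and 1 of the 11 arrays was closest to an array of its own number.

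Over all probe sets, the runs without 1 array gave 1 to 10 calls in double-mutant minus Irf8 KO, 347 to 1039 in Irf8 KO minus control and 1477 to 3673 in double-mutant minus control. Array weights gave 1658 in Irf8 KO minus control and 4395 in double-mutant minus control. At an adjusted p under 0.01 the counts were 1, 303 and 1063 in that order of comparisons. With only the double-mutant and Irf8 KO arrays in the fit, 0 probe sets were called (2623 at an unadjusted p under 0.05). Without control replicate 4 and double-mutant replicate 2, an alternative chosen after seeing the data, 11 were called in double-mutant minus Irf8 KO and 1561 in Irf8 KO minus control. With Plaur the count of called receptors was still 11. The causes were not tested.

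Differences that were not called turned sign where they were near 0. For Irf8 KO minus control, leaving out 1 array gave -0.29 to 0.057 for Ptger4, which was 0.0072 without the 2 arrays named above. For double-mutant minus Irf8 KO the runs without 1 array gave -0.00012 to 0.25 for Agtrap, -0.012 to 0.12 for Ifngr1, -0.30 to 0.36 for Il31ra, -0.076 to 0.082 for Insr, -0.32 to 0.022 for Mc5r, -0.083 to 0.26 for Ncoa7, -0.34 to 0.24 for P2rx7, -0.011 to 0.36 for Reep3 and -0.058 to 0.27 for Tnfrsf14. In the same comparison the block gave -0.039 for Agtrap, 0.0405 for Il31ra and 0.022 for Insr, median centring 0.00602 for Il31ra and 0.036 for Insr, array weights 0.033 for Insr, and leaving out the 2 arrays 0.057 for Insr and -0.083 for Ncoa7. The mean over all probe sets of a gene was not run. For the 7 receptors below the median of all probe sets, signal over background limits what can be read.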
